A study of Mus musculus with 36 samples.

Results

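Fc gamma receptors bind the constant part of IgG antibodies and let macrophages engulf and kill antibody-coated targets. The 5 genes described here were chosen by symbol: Fcgr1, Fcgr2b, Fcgr3 and Fcgr4, which encode the mouse receptors, and Fcer1g, which encodes the signalling chain that the activating receptors share. They are 5 of 46078 genes counted in each library, and all 5 passed the filter on low counts, which kept 14262 genes.

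The receptors of Fcgr1, Fcgr3 and Fcgr4 are activating: they lack a signalling tail of their own and work through the Fcer1g chain, whose tyrosine motif (an ITAM) is phosphorylated by Src-family kinases and then recruits the kinase Syk. The receptor of Fcgr1 (CD64) binds monomeric IgG with high affinity and is known as a target of interferon gamma in macrophages. The receptor of Fcgr2b carries an inhibitory motif (an ITIM) that recruits the phosphatase encoded by Inpp5d and restrains the activating receptors.

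RNA was sequenced from RAW264.7, a mouse macrophage line, after transwell coculture with RM-1-BM, a mouse prostate cancer line, with 3 libraries in each of 4 groups. The partner cells had been transduced either with empty vector or with the F133V mutant of SPOP, a ubiquitin ligase adaptor often mutated in prostate cancer, and each coculture received the vehicle DMSO or olaparib, an inhibitor of PARP enzymes. All 12 macrophage libraries thus came from cocultures; macrophages grown alone were not analysed here. Another 24 libraries held the cancer cells themselves, in 8 groups of 3 (either construct, with or without macrophages, DMSO or olaparib), and served as background. Whether a group's 3 libraries came from separate cultures is not stated, so p-values here reflect library-to-library spread alone, which may be technical. Neither the promoter driving the SPOP construct, nor whether the cancer lines were single clones, nor the olaparib dose is stated in the labels.

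Macrophage libraries held 30292309 to 37340425 gene counts and cancer libraries 32063028 to 43062440. In macrophages the first principal component, with 73.1% of the variance, set the 3 libraries with the F133V partner in DMSO apart from the other 9. The 15 macrophage markers summed to between 13883 and 16172 CPM, here counts scaled to the library's gene counts, in macrophage libraries, with C1qa at 0 in 2 of the 4 groups, and to between 12.9 and 32.9 in cancer libraries, where C1qa and C1qb were at 0 throughout. By group the macrophage sum was 15937 to 16172 with the vector partner in DMSO, 15024 to 15081 with olaparib, 14454 to 14893 with the F133V partner in DMSO and 13883 to 13979 with olaparib; the part of this in the receptor results was not tested. The 14 cancer cell markers summed to 2.79 to 5.57 CPM in macrophages, with Epcam, Cdh2 and Col1a2 at 0 in all 4 groups. In bulk RNA, fewer cells of a type and less RNA per cell cannot be told apart.

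All but Fcgr1 lie together on chromosome 1 (GRCm38), within 276 kb. In order these are Fcgr2b (170958617 to 170976547, minus strand), Fcgr4 (171018920 to 171029761, plus), Fcgr3 (171051174 to 171064935, minus) and Fcer1g (171229572 to 171234365, minus). Fcgr1 lies apart on chromosome 3 (96282909 to 96293969, minus). All 5 are protein-coding. The exons of Fcgr2b share 155 bases with the opposite-strand model Gm38204, and the strand setting of the counts is not given. No 50-base window in transcripts of Fcgr1, Fcgr4 or Fcer1g occurs in another gene, but Fcgr2b and Fcgr3 resemble each other. In Fcgr3 transcripts 10.2% of the windows occur in another gene, always in Fcgr2b. In Fcgr2b transcripts 6.72% do, or 249 windows, of which 166 occur in Fcgr3. The longest coding stretch that both hold, 129 bases, is shown because reads inside it cannot be assigned to either gene; it spans coding bases 278 to 406 of Fcgr2b and 263 to 391 of Fcgr3.
shared by Fcgr2b and Fcgr3: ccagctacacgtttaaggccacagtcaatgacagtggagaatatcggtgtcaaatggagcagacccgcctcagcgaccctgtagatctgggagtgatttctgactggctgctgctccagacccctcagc
Counts of this pair are therefore uncertain to that extent; read length is not stated in the labels.

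The 250 bases before the RefSeq start of Fcgr1 (GRCm38.p6, chr3:96293970-96294219, minus strand) are shown because in DMSO Fcgr1 was higher with the F133V partner while the other receptor genes were lower (under olaparib Fcgr4 and Fcgr2b were higher too), and because it is a textbook target of interferon gamma and PU.1. Capitals mark a gamma-activated sequence (GAS, searched as TTCNNNGAA), which lies 109 to 101 bases before the start, and a PU.1 core (searched as GAGGAA, here on the reverse strand as TTCCTC), which lies 55 to 50 bases before it.
Fcgr1: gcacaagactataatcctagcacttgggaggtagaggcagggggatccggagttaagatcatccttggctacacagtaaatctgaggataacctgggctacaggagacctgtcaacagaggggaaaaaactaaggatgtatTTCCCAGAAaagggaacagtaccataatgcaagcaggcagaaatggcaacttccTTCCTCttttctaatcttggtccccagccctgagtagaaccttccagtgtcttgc
On either strand, 7.02% of 32851 RefSeq promoters of this length hold the GAS letters, 23.3% the PU.1 letters and 2.98% those of an interferon-stimulated response element (ISRE, searched as GAAANNGAAA). Promoters of all 5 genes were found. Fcgr3 held a PU.1 match next to its start and Fcgr4 held 1 PU.1 and 1 ISRE match. These are printed with up to 10 flanking bases and capitals on the match, each 5′ to 3′ on the gene's own strand.
Fcgr3, PU.1: gtccatttccTTCCTCtttttgtag
Fcgr4, PU.1: ggctatttacTTCCTCtcttctagtc
Fcgr4, ISRE: ggtgtttctgGAAAAGGAAActggtgagat
The windows of Fcgr2b and Fcer1g held none of the 3 letter patterns, which says nothing about factors binding elsewhere. The PU.1 and ISRE letters do not overlap in Fcgr4. For Fcgr3 the line shows the second of 2 annotated starts, 9 bases downstream of the other; apart from that of Fcgr1, these promoter windows reach into the gene models given above.

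In DMSO, macrophages facing F133V cancer cells carried 2.69 times as much Fcgr1 message as those facing vector cells, while Fcgr3, Fcgr4 and Fcgr2b were lower by 18.5%, 19.2% and 5.92%. Under olaparib the F133V partner went with 1.604 times as much Fcgr1, with Fcgr4 higher by 20.1% and Fcgr2b by 4.37%, and Fcgr3 was not called. With the F133V partner, the olaparib difference had the opposite sign to the partner difference in DMSO for each of the 4 receptor genes: Fcgr1 fell to 0.437 of its DMSO level and the other 3 receptor genes rose. With the vector partner olaparib lowered Fcgr1 and Fcgr4, both by less than 2-fold. Fcer1g differed by at most 5.21% in any comparison.

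**Figure D1:**
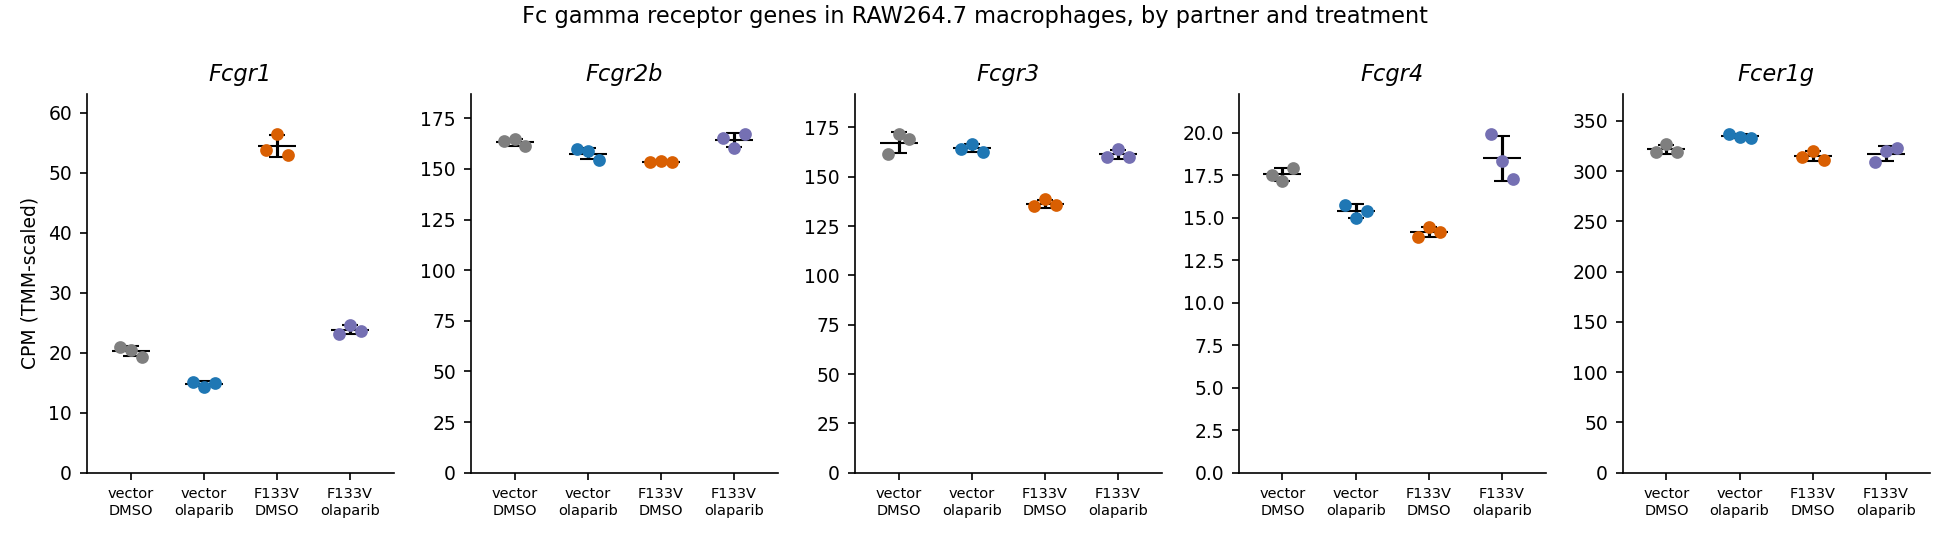
CPM (TMM-scaled, linear axis from 0) of each Fc gamma receptor gene in the 12 macrophage libraries, by partner (vector or F133V) and treatment. Points are libraries, dashes are means of 3 and bars are 1 SD. Fcgr1 stands at 53.0 to 56.4 CPM with the F133V partner in DMSO and at 24.6 or lower elsewhere, and Fcgr3 and Fcgr4 are lowest in that group.

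Fcgr1, the high-affinity activating receptor, was measured at 20.97, 20.4 and 19.4 CPM in the 3 macrophage libraries with the vector partner in DMSO (679, 671 and 592 counts). From here on CPM are scaled by TMM (edgeR's trimmed mean of M-values), and a gene is called at an adjusted p under 0.05. With the F133V partner in DMSO the values were 53.8, 56.4 and 53.0 CPM (1988, 2219 and 1934 counts). Every library of the F133V partner lay above every library of the vector partner. The difference was 1.43 ± 0.04 on the log2 scale (SE; adjusted p = 3.6e-33, edgeR quasi-likelihood test, n = 3 per group), and 62 of the tested genes, Fcgr1 included, were called and rose at least as far. Called genes that were at least 2-fold higher made up 1.33% of those tested.

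Under olaparib Fcgr1 stood at 15.1, 14.4 and 15.02 CPM with the vector partner and at 23.2, 24.6 and 23.7 CPM with the F133V partner. The groups again did not overlap, and the partner difference was 0.68 ± 0.05 (log2 ± SE, adjusted p = 5.1e-16, edgeR). Olaparib lowered Fcgr1 with either partner: it fell by 0.45 ± 0.05 with the vector partner (adjusted p = 1.1e-09, edgeR) and by 1.19 ± 0.04 with the F133V partner (adjusted p = 1.2e-30, edgeR; 1.16% of tested genes were called and at least 2-fold lower). The fall was larger with the F133V partner by 0.74 ± 0.07 (interaction, adjusted p = 1.2e-13, edgeR). Fcgr1 thus decreased in order from the F133V partner in DMSO, through the F133V partner with olaparib and the vector partner in DMSO, to the vector partner with olaparib, with no overlap between neighbours.

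Fcgr3, the most abundant receptor gene per length, encodes a low-affinity activating receptor for immune complexes. Its levels were 161, 172 and 169 CPM with the vector partner in DMSO and 135, 139 and 136 CPM with the F133V partner in DMSO, a fall of every library below the vector range (log2 -0.29 ± 0.02, adjusted p = 1.3e-16, edgeR). With olaparib they were 164, 167 and 163 CPM with the vector partner and 160, 164 and 160 CPM with the F133V partner, and these groups overlapped (-0.03 ± 0.02, adjusted p = 0.33). Olaparib raised Fcgr3 with the F133V partner (0.24 ± 0.02, adjusted p = 1.1e-13), where its libraries returned into the range of the vector partner in DMSO or just below it. With the vector partner the values with and without olaparib overlapped (-0.02 ± 0.02, adjusted p = 0.44). The interaction was 0.27 ± 0.03 (adjusted p = 2.8e-10, edgeR).

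Fcgr4 encodes an activating receptor of intermediate affinity found on monocytes, macrophages and neutrophils. It was counted 512 to 685 times per library. Levels were 17.5, 17.2 and 17.9 CPM with the vector partner in DMSO, and 13.9, 14.5 and 14.2 CPM with the F133V partner in DMSO, which was lower without overlap (log2 -0.31 ± 0.06, adjusted p = 9.3e-06, edgeR). Under olaparib the direction of the partner difference was the opposite: 15.8, 14.98 and 15.4 CPM with the vector partner against 19.9, 18.3 and 17.3 CPM with the F133V partner (0.26 ± 0.06, adjusted p = 0.00016). Olaparib accordingly lowered Fcgr4 with the vector partner (-0.19 ± 0.06, adjusted p = 0.0096) and raised it with the F133V partner (0.38 ± 0.06, adjusted p = 6.7e-08). The former call was lost without replicate 2 of the vector partner with olaparib (adjusted p = 0.052). The interaction, 0.57 ± 0.08, passed the test (adjusted p = 3.6e-08, edgeR).

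Fcgr2b, the inhibitory receptor, differed in the same directions as Fcgr4 in each comparison, but by less. Its levels were 164, 165 and 161 CPM with the vector partner in DMSO and 153, 154 and 154 CPM with the F133V partner in DMSO (log2 -0.09 ± 0.02, adjusted p = 0.00032, edgeR). Olaparib gave 160, 159 and 154 CPM with the vector partner and 165, 160 and 167 CPM with the F133V partner. The rise with olaparib opposite F133V cells was 0.10 ± 0.02 (adjusted p = 5.7e-05), and the difference with the vector partner, -0.05 ± 0.02, was not called (adjusted p = 0.059) although its groups did not overlap. Under scaling by library size alone the calls for the partner in DMSO (-0.04, adjusted p = 0.14) and for olaparib opposite F133V cells (0.03, adjusted p = 0.26) ended. The partner difference under olaparib, 0.06 ± 0.02 (adjusted p = 0.016), lost its call when any of 3 single libraries was left out, with adjusted p from 0.077 to 0.12. The interaction was 0.15 ± 0.03 (adjusted p = 2.6e-05, edgeR).

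Fcer1g, the shared signalling chain, varied about as little as Fcgr2b, with a 1.09-fold range over the 12 libraries for each. It ran from 319 to 327 CPM with the vector partner in DMSO, from 333 to 337 with olaparib, from 311 to 320 with the F133V partner in DMSO and from 309 to 323 with olaparib. Neither the partner difference in DMSO (log2 -0.03 ± 0.02, adjusted p = 0.15, edgeR) nor the olaparib difference with the F133V partner (0.01 ± 0.02, adjusted p = 0.65) passed, and the first of these became 0.02 and the latter -0.06 when libraries were scaled by size alone. Olaparib raised it with the vector partner by 0.06 ± 0.02 (adjusted p = 0.01), which became -0.02 under scaling by library size alone and was lost without replicate 1 or replicate 3 of that partner in DMSO (adjusted p = 0.064 and 0.056). Under olaparib it was lower with the F133V partner (-0.08 ± 0.02, adjusted p = 0.00036), a call that ended under scaling by library size alone (adjusted p = 0.52). The interaction was not called (-0.05 ± 0.02, adjusted p = 0.11).

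**Figure D2:**
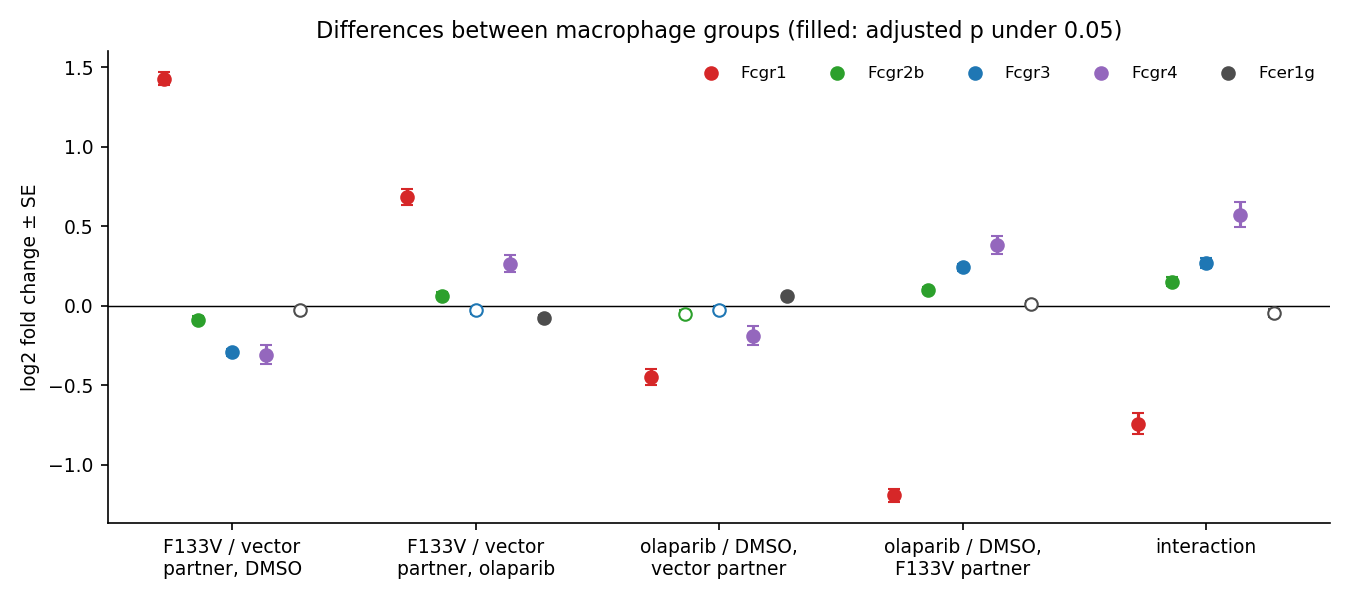
Log2 fold change (vertical axis, bars 1 SE) of the 5 genes in the 4 comparisons between macrophage groups and in the interaction, which is the olaparib change with the F133V partner minus that with the vector partner. Filled points passed an adjusted p of 0.05. Fcgr1 lies at 1.43 and 0.68 for the partner and at -0.45 and -1.19 for olaparib, opposite in sign to Fcgr3 and Fcgr4 in the first and the fourth comparison.

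Counted together, in DMSO the F133V partner went with 1 gene higher, 3 lower and 1 not called, among tested genes of which 53.6% were called (25.5% higher and 28.1% lower). Under olaparib 3 were higher, 1 lower and 1 not called (35.2% of all tested genes called, 17.6% in each direction). Olaparib with the vector partner gave 1 higher, 2 lower and 2 not called (28.4% of all tested genes called, 14% higher and 14.5% lower), and with the F133V partner 3 higher, 1 lower and 1 not called (57.5%, with 28.5% higher and 29% lower). In the interaction 3 were higher, 1 lower and 1 not called (49.3%, with 25.7% higher and 23.7% lower). With 5 genes and backgrounds this high, the number called is not read as particular to the receptors. The 2 groups did not overlap for 4 of the 5 genes in each comparison, where the shares over all tested genes were 57.5% and 45.1% for the partner in DMSO and under olaparib and 39.3% and 61.2% for olaparib with the vector and the F133V partner. The median log2 difference of the 5 genes was -0.09, 0.06, -0.05 and 0.10 in these 4 comparisons, beside -0.01, 0.00, 0.00 and 0.00 over all tested genes. The size of the Fcgr1 difference set it apart from the other 4 genes: 0.435% of tested genes were called and rose as far with the F133V partner in DMSO, and 0.68% fell as far with olaparib opposite F133V cells, whereas for Fcgr3 the corresponding shares were 13.2% lower and 17.0% higher.

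**Figure D3:**
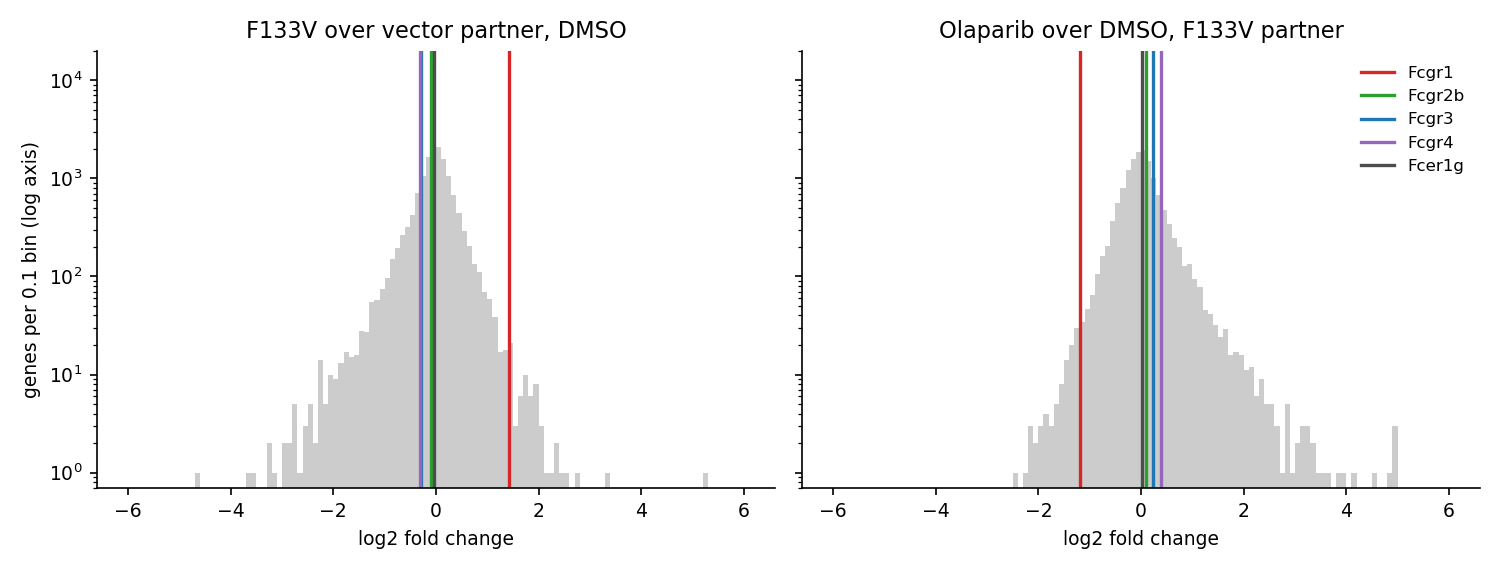
Number of tested genes (log axis) per 0.1 of log2 fold change, for the F133V against the vector partner in DMSO (left) and for olaparib against DMSO with the F133V partner (right), with the 5 genes as vertical lines. Fcgr1 lies in the tail, at 1.43 and at -1.19, and the other 4 lie within 0.4 of 0.

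Levels of different genes were compared per exon length, as RPKM, the scaled CPM divided by exon length in kilobases. Fcer1g, the common chain, was highest at 353 to 385 RPKM. Fcgr3 came next with 77.7 to 98.9, then Fcgr2b with 26.5 to 28.9 RPKM. In 3 of the 4 groups Fcgr4 (11.9 to 15.9 RPKM) lay above Fcgr1 (5.55 to 9.52 RPKM), and their libraries did not overlap. With the F133V partner in DMSO this order was turned: Fcgr1 stood at 20.5 to 21.8 RPKM and Fcgr4 at 11.0 to 11.5.

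Of the summed level of the 4 receptor genes per exon base, Fcgr1 made up 5.35% ± 0.286 with the vector partner in DMSO, 4.09% ± 0.134 with olaparib, 15.3% ± 0.299 with the F133V partner in DMSO and 6.34% ± 0.183 with olaparib (SD, n = 3 each). Fcgr3 took 65.8% ± 0.837, 67.7% ± 0.449, 57.2% ± 0.0845 and 64.0% ± 0.623 in the same order. The share of the inhibitory Fcgr2b stayed between 19.0% and 20.1% in all 12 libraries. The ratio of the 3 activating receptor genes to Fcgr2b was likewise 4.19 ± 0.107, 4.14 ± 0.0534, 4.18 ± 0.0678 and 4.12 ± 0.146 per exon length, with overlapping libraries. The identity of the activating message thus differed between groups, while its amount relative to Fcgr2b per exon length overlapped between their libraries. That overlap depends on the length weights. As summed counts without length, the ratio was higher in every library with the F133V partner in DMSO than in any other macrophage library. Fcgr2b has 5790 exon bases over all its transcripts and 3544 in its principal transcript. With principal transcript lengths, chosen after seeing the data, the ratio was 3.17, 3.15, 3.08 and 3.10, again with overlapping libraries.

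**Figure D4:**
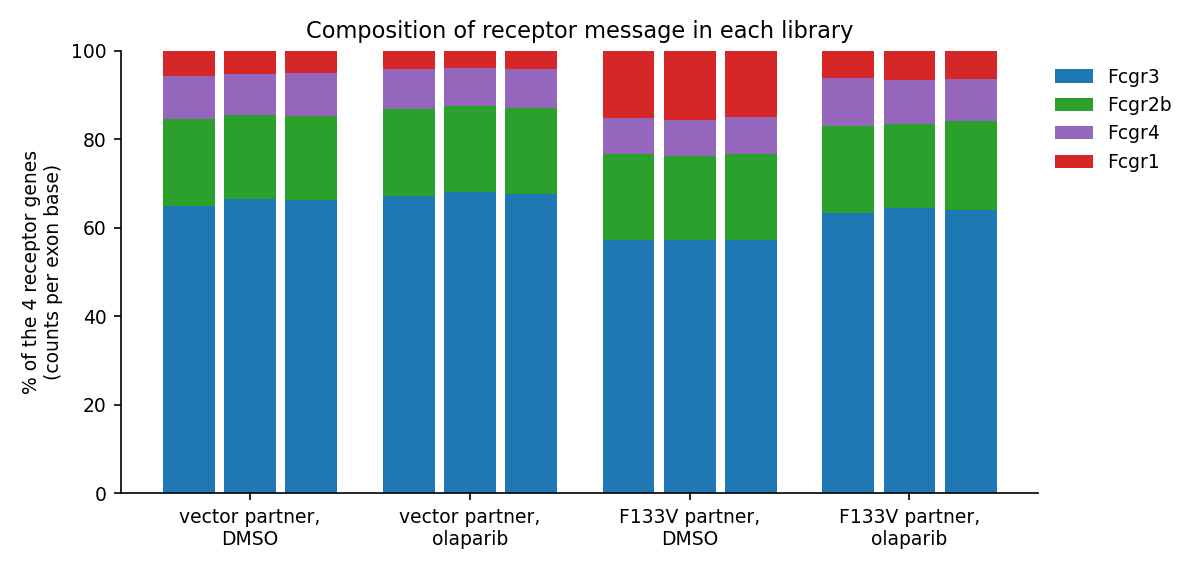
Share (percent) of each receptor gene in the summed level of Fcgr1, Fcgr2b, Fcgr3 and Fcgr4 per exon base, 1 bar per macrophage library. Fcgr1 takes 15.3% on average with the F133V partner in DMSO and 3.94% to 6.51% elsewhere, and the Fcgr2b segment keeps nearly the same height.

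The activating receptors of macrophages signal through kinases, lipid kinases and adaptors, and 25 of the 26 genes listed for this were tested. With the F133V partner in DMSO 4 were higher and 16 lower (median log2 -0.17, over all tested genes -0.01), and with olaparib opposite F133V cells 14 were higher and 10 lower (median 0.09). Of all tested genes 25.5% were called higher and 28.1% lower in the first comparison, and 28.5% and 29% in the second. Shares were 14% higher and 14.5% lower for olaparib with the vector partner, and 17.6% in each direction for the partner under olaparib. They are the background for every list below, and list counts are given as a description. Syk, the kinase recruited by the Fcer1g chain, averaged 208 ± 2.47 CPM with the vector partner and 137 ± 1.24 with the F133V partner in DMSO (SD, n = 3; log2 -0.61 ± 0.02, adjusted p = 7.6e-31, edgeR), and rose by 0.59 ± 0.02 with olaparib opposite F133V cells (adjusted p = 1.8e-30). Fgr, a Src-family kinase of myeloid cells, was 25.8 ± 0.77 against 11.1 ± 0.585 CPM (-1.22 ± 0.05), and Src was 33.7 ± 1.23 against 21.1 ± 0.88 CPM (-0.67 ± 0.04). Pik3cb, a catalytic subunit of phosphoinositide 3-kinase, was lower by a similar amount (-0.74 ± 0.02). All 4 genes were higher with olaparib opposite F133V cells, by 0.45 to 0.92 on the log2 scale. With the vector partner olaparib left 4 of the list higher and 15 lower (median -0.08), Fgr among the latter (-0.55 ± 0.05), and the F133V partner under olaparib went with 8 higher and 10 lower (median 0.00). Tyrobp, the chain of the same kind as Fcer1g that serves other receptors, was slightly higher with the F133V partner in DMSO (0.06 ± 0.02, adjusted p = 0.00093, edgeR). It was lower with that partner under olaparib (-0.17 ± 0.02, adjusted p = 1.2e-11) and with olaparib opposite F133V cells (-0.24 ± 0.02, adjusted p = 5.6e-18). With the vector partner the olaparib difference was not called (-0.01 ± 0.02, adjusted p = 0.66), except under scaling by library size alone (-0.09).

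Of 18 tested inhibitory receptors and phosphatases, 1 was higher and 13 were lower with the F133V partner in DMSO (median -0.24), and 9 were higher and 2 lower with olaparib opposite F133V cells (median 0.08). The corresponding shares over all tested genes were 25.5% higher and 28.1% lower, and 28.5% and 29%. Inpp5d, the phosphatase that the Fcgr2b receptor recruits, averaged 175 ± 3.66 CPM with the vector and 135 ± 2.1 with the F133V partner in DMSO (-0.38 ± 0.02, adjusted p = 1e-20, edgeR). Its relative Inppl1 fell further (-0.61 ± 0.02), as did Pirb, an inhibitory receptor for class I molecules (-0.57 ± 0.03). Syk and Inpp5d, which act downstream of the activating and the inhibitory receptors, were thus lower in the same group. Olaparib with the vector partner gave 0 higher and 9 lower by edgeR (2 were higher at an unadjusted p under 0.05, and DESeq2 called 0 higher; median -0.08), and the F133V partner under olaparib 5 higher and 7 lower (median -0.05).

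Genes of the phagocytic cup and actin, which close the membrane around a bound particle, were 6 higher and 19 lower of 29 tested with the F133V partner in DMSO, and 16 higher and 10 lower with olaparib opposite F133V cells (medians -0.09 and 0.06). Over all tested genes the shares were 25.5% higher and 28.1% lower, and 28.5% and 29%. The actin-severing protein gene Gsn fell from 330 ± 4.19 to 194 ± 3.13 CPM with the F133V partner (-0.76 ± 0.02) and the motor gene Myo1e from 249 ± 0.104 to 156 ± 3.88 CPM (-0.67 ± 0.02). Olaparib with the vector partner left 7 higher and 11 lower, and the partner under olaparib 8 higher and 12 lower, with a median of -0.03 in each. The NADPH oxidase makes the oxidants released onto ingested targets. Of its 5 tested genes 4 were lower with the F133V partner in DMSO and 0 higher (median -0.25), and olaparib opposite F133V cells raised 3 and lowered 0 (median 0.06) by edgeR. DESeq2 and an unadjusted p under 0.05 in edgeR also gave 0 in these directions. Cybb, its catalytic subunit, averaged 466 ± 2.16 CPM with the vector and 247 ± 5.26 with the F133V partner in DMSO (-0.92 ± 0.02, adjusted p = 3e-42, edgeR), and 360 ± 1.86 and 337 ± 0.557 under olaparib. Ncf1, a cytosolic subunit, was lower with the F133V partner with and without olaparib (-0.32 ± 0.02 and -0.41 ± 0.02). The other 2 comparisons lowered 2 of the 5 genes each (medians -0.01 for the partner under olaparib and -0.03 for olaparib with the vector partner).

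Other phagocytic receptors, such as scavenger and complement receptors, were 2 higher and 13 lower of 17 tested with the F133V partner in DMSO (median -0.27), and 9 higher and 4 lower with olaparib opposite F133V cells (median 0.04). Among all tested genes 25.5% were higher and 28.1% lower in the former, and 28.5% and 29% in the latter. Lrp1, a receptor for dying cells and many ligands, fell from 5523 ± 23.8 to 3302 ± 72.8 CPM with the F133V partner (-0.74 ± 0.01). Itgax, a complement receptor subunit, was 38.5 ± 1.03 against 21.3 ± 0.839 CPM (-0.85 ± 0.04) and rose to 39.6 ± 1.99 CPM with olaparib opposite F133V cells. Olaparib with the vector partner gave 3 higher and 8 lower (median -0.04), and the F133V partner under olaparib 5 higher and 7 lower (median -0.03). Fcgr1 thus rose in the comparison in which most tested members of these lists fell, while Fcgr3, Fcgr4 and Fcgr2b fell.

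**Figure D5:**
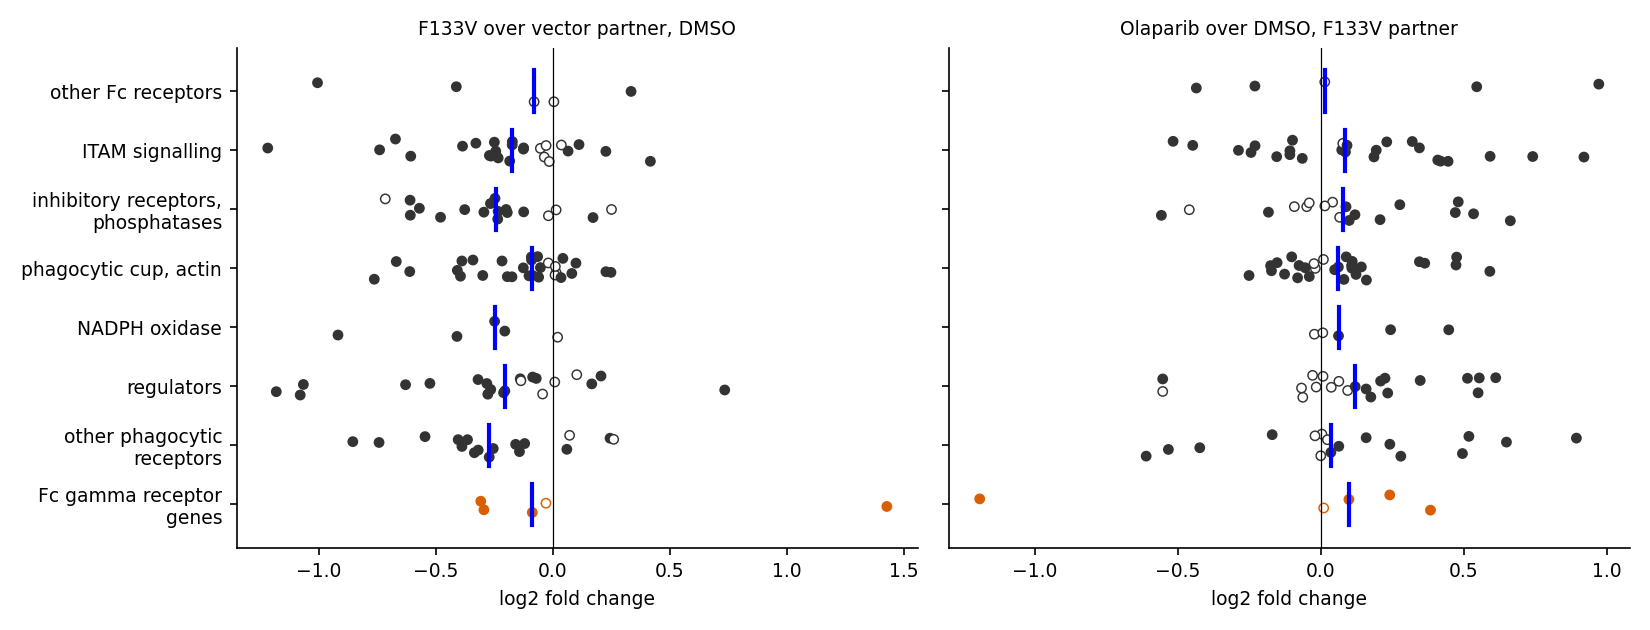
Log2 fold change (horizontal axis) of each tested gene of 7 lists and of the 5 Fc gamma receptor genes (bottom row, orange), for the F133V against the vector partner in DMSO (left) and for olaparib against DMSO with the F133V partner (right). Filled points passed an adjusted p of 0.05, vertical spread is for display, and blue bars are medians. Fcgr1 is the rightmost orange point on the left, at 1.43, and the leftmost on the right, at -1.19.

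Of 21 genes listed as transcriptional regulators of these receptors or parts of the pathways that control them, 3 were higher and 14 lower with the F133V partner in DMSO (median -0.21), and 11 higher and 1 lower with olaparib opposite F133V cells (median 0.12). Shares over all tested genes were 25.5% higher and 28.1% lower, and 28.5% and 29%. C5ar1, the receptor for complement C5a, averaged 61.9 ± 2.06 CPM with the vector and 27.3 ± 0.864 with the F133V partner in DMSO (-1.18 ± 0.04, adjusted p = 2.7e-32, edgeR), Il10ra, the interleukin-10 receptor, 51.9 ± 2.42 against 24.8 ± 0.236 CPM (-1.07 ± 0.04) and Stat6, which transmits interleukin-4, 263 ± 4.1 against 183 ± 0.959 CPM (-0.53 ± 0.02). All 3 were higher with olaparib opposite F133V cells, by 0.51 to 0.55. Olaparib with the vector partner gave 2 higher and 10 lower (median -0.07), and the F133V partner under olaparib 5 higher and 4 lower (median 0.02). Irf1 and Spi1 are named here after their values were seen, and in DMSO neither was called higher with the F133V partner. The 3 called higher there, named for the same reason, were Jak2 (0.21 ± 0.03, adjusted p = 8.1e-07, edgeR), Cebpa (0.17 ± 0.04, adjusted p = 0.0011) and Socs1. Socs1 was at 0.956 against 0.576 CPM, with overlapping libraries (0.73 ± 0.28, adjusted p = 0.023). Irf1, an interferon-induced transcription factor, was at 22.3 ± 0.588 and 22.4 ± 0.074 CPM with the vector and the F133V partner in DMSO (0.01 ± 0.05, adjusted p = 0.91, edgeR, and -0.01 without replicate 2 of the vector partner). Under olaparib Irf1 was higher with the F133V partner (0.19 ± 0.05, adjusted p = 0.0022), and with the vector partner olaparib lowered it (-0.20 ± 0.05, adjusted p = 0.002), in both cases in the direction of Fcgr1. With olaparib opposite F133V cells Irf1 differed by -0.02 and was not called, where Fcgr1 differed by -1.19. The interaction was 0.19 for Irf1 and -0.74 for Fcgr1, opposite in sign. Spi1, which encodes PU.1, was lower with the F133V partner in DMSO, at 230 ± 4.5 against 254 ± 2.93 CPM (-0.14 ± 0.02, adjusted p = 5.6e-09). These are levels of message, and the activity of the factors was not measured.

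The genes most like each member over the 12 macrophage libraries were taken by Pearson's r of log2 CPM among 9278 genes averaging 5 CPM or more. The 5 members and gene models (names of Gm with digits or ending in Rik) were left out of these. The libraries form 4 groups of 3, so r mostly reflects 4 group means and is given as a description. Fcgr1 was most like Amotl1 (r = 0.993), Akr1a1 (0.992) and Wdr66 (0.992). Wdr66 averaged 25.4, 19.1, 51.3 and 29.9 CPM with the vector partner in DMSO and with olaparib and with the F133V partner in DMSO and with olaparib, a course close to that of Fcgr1 in size too. Amotl1, at 235, 215, 314 and 254 CPM, had the same order over a narrower range. Fcgr3 was most like Zbtb4 (0.986), Oxsr1 (0.986) and Mef2d (0.983), Fcgr4 most like Klf2 (0.965), Eea1 (0.954) and Arfgap1 (0.954), and Fcgr2b most like Pqlc1 (0.952), Atxn10 (0.947) and Itgax (0.944). For Fcer1g the nearest were Rps6-ps4 (0.938), Tiam1 (0.923) and Eif4a1 (0.921). Among the members r was -0.926 between Fcgr1 and Fcgr3 and 0.847 between Fcgr2b and Fcgr4.

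In the 24 cancer libraries the receptor genes were at trace level. Fcgr1 had 3 counts in all, 1 each in 3 monoculture libraries, and 0 in the 12 libraries of cancer cells that had shared a transwell with macrophages. Macrophages therefore held at least 782-fold more Fcgr1, as CPM of gene counts, than their own partners with the vector in DMSO, at least 520-fold with the vector and olaparib, at least 2157-fold with F133V in DMSO and at least 986-fold with F133V and olaparib, taking 3 counts over the 3 libraries of a group as the limit that a count of 0 allows. These limits cover counting error only. Fcgr2b reached at most 0.356 CPM in a cancer library, Fcgr3 at most 0.174 and Fcgr4, which was at 0 in 10 of 24, at most 0.178. Fcer1g was counted 7 to 45 times per cancer library, at most 1.2 CPM, against 307 to 337 CPM of gene counts in macrophages. That highest value came from a monoculture library of vector cells in DMSO (replicate 1), where the macrophage markers also summed to 32.2 CPM, and replicate 2 stood at 32.9 CPM, against 21.9 in replicate 3; Fcer1g was 0.61 and 0.41 CPM in the latter 2. The lowest macrophage library still exceeded the highest cancer library 414-fold for Fcgr2b, 804-fold for Fcgr3, 80.3-fold for Fcgr4 and 256-fold for Fcer1g.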

How the data were processed

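Each library's deposited file held the authors' unnormalized gene counts (46078 genes) and HTSeq summary lines. The submitters' processing notes name STAR, TopHat, HTSeq, DESeq2 and GRCm38; which aligner made these counts, with what version and strand setting, is not stated there. Of all counted reads in macrophage libraries 17.3% to 21.5% fell in no gene and stayed out of library sizes. Groups came from the labels' group entry. The titles of 3 macrophage libraries (vector partner, olaparib) leave out the partner. The genotype entry of macrophages differs between groups and was not used. It reads SPOP F133V in one group with the F133V partner and wild type in the other.

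The 12 macrophage libraries were fitted together in edgeR 4.0.16 (R 4.3.3): TMM scaling, filterByExpr with a minimum count of 10, 4 groups, 8 residual degrees of freedom, quasi-likelihood F test, Benjamini-Hochberg adjustment over 14262 genes, called at an adjusted p under 0.05. The test also borrows information on the spread across genes, so the p-values rest on more than these 8 degrees of freedom. The common biological coefficient of variation, the spread between libraries of a group beyond counting error, was 1.81%. The SE is the size of the log2 fold change divided by the square root of F. CPM are TMM-scaled except in cancer comparisons, marker sums and folds over cancer libraries, which use gene counts alone. The procedure was also run on simulated counts, drawn independently for each library at the fitted spread, with fewer genes changed than were called here. Such a run cannot show whether the libraries of a group are independent. Exon lengths and positions came from GENCODE M21, which held 98.0% of the files' gene IDs, and promoter sequences from RefSeq (GRCm38.p6). No protein sequence was used.

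The members, lists and rule for names were chosen with earlier results of these data known. Named are the members; per list and comparison up to 4 of the called genes, by smallest adjusted p; and the 3 genes most like each member. Lists were other Fc receptors, ITAM signalling, inhibitory receptors and phosphatases, phagocytic cup and actin, NADPH oxidase, regulators, other phagocytic receptors, and markers of macrophages, cancer cells and other leukocytes; 1 listed gene (Lilrb4a) was not matched. Alternatives were DESeq2 1.42.0, RLE scaling, library size alone, no filter, only the groups compared, a replicate block and each library left out. Figures used matplotlib 3.10.9. Some listed genes are not reported here.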

Additional observations from a re-analysis of the deposited data

Results flagged for a closer look

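The olaparib change differed between the macrophages of the 2 partners for 4 of the 5 receptor genes, by the interaction term of the edgeR quasi-likelihood fit (n = 3 per group; 49.3% of all tested genes passed the same test). On the log2 scale, F133V partner minus vector partner, the difference was -0.74 for Fcgr1, 0.15 for Fcgr2b, 0.27 for Fcgr3 and 0.57 for Fcgr4. For Fcgr1 the change had the same sign with each partner and differed in size, for Fcgr4 it had opposite signs and was called with each, and for Fcgr2b and Fcgr3 it was called with the F133V partner and not with the vector partner.

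Among the listed genes named in the text, Jak2, Cebpa and Socs1 aside, the interaction was also called, with a higher value with the F133V partner, for Fgr (1.00), Syk (0.67), Src (0.83), Pik3cb (0.82), Inpp5d (0.28), Inppl1 (0.48), Pirb (0.70), Gsn (0.65), Myo1e (0.81), Cybb (0.82), Ncf1 (0.0876), C5ar1 (0.82), Il10ra (1.14), Stat6 (0.55), Irf1 (0.19), Lrp1 (0.62), Itgax (1.29) and Lgals3 (0.35). It was negative for Tyrobp (-0.23). The Irf1 call (adjusted p = 0.028) was lost with DESeq2 (adjusted p = 0.11), with no filter (0.082) and when any of 4 single libraries was left out (0.068 to 0.094). Il10ra, Fgr, Itgax, C5ar1, Cybb, Syk, Pik3cb, Inpp5d, Pirb, Gsn and Myo1e fell with olaparib opposite vector cells and rose opposite F133V cells; the rise of Inpp5d was not called under scaling by library size alone (0.05, adjusted p = 0.061). Over all tested genes 25.7% were called higher and 23.7% lower in the interaction. The lists counted 14 higher and 5 lower of 25 for ITAM signalling, 12 and 2 of 18 for inhibitory receptors and phosphatases, 15 and 8 of 29 for the phagocytic cup, 4 and 0 of 5 for the NADPH oxidase, 14 and 2 of 21 for regulators, 10 and 2 of 17 for other phagocytic receptors, 2 and 1 of 5 for other Fc receptors and 3 and 3 of 13 for macrophage markers. These terms use the same libraries as the other comparisons and are not independent of them. By edgeR at an unadjusted p under 0.05 and by DESeq2, 0 NADPH oxidase genes were lower.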

How the results depend on the processing

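Of 25 results on the 5 genes (each gene in 4 comparisons and the interaction), 13 kept their direction and side of the threshold under every alternative run, 6 lost a call under some, 3 gained one with the sign kept and 4 changed sign. Fcer1g for olaparib with the F133V partner, which both changed sign and gained a call, is counted among the changes of sign. Fcgr1 kept its call in all 5, with log2 values of 1.40 to 1.48 and 0.66 to 0.74 for the partner in DMSO and under olaparib, -0.53 to -0.42 and -1.26 to -1.17 for olaparib with the vector and the F133V partner, and -0.77 to -0.71 for the interaction. Fcgr3 and Fcgr4 kept theirs for the partner in DMSO, for olaparib with the F133V partner and in the interaction. Scaling by library size alone turned uncalled or small values: Fcer1g became 0.0205 (partner, DMSO), -0.0226 (olaparib, vector partner) and -0.0597 (olaparib, F133V partner, now called), Fcgr3 0.0321 (partner, olaparib), Inppl1 -0.0744, Stat6 -0.0774 and Lrp1 -0.0545 (olaparib, vector partner) and Ncf1 -0.0077 (olaparib, F133V partner). It ended the call of Fcgr2b for the partner in DMSO (-0.04) and for olaparib with the F133V partner (0.03), made those of Fcgr2b (-0.13) and Fcgr3 (-0.10) for olaparib with the vector partner, and moved the share of higher calls over all genes from 47.5% to 59.3%, 49.9% to 75.6%, 49.1% to 14.7% and 49.6% to 36.7% in the 4 comparisons. With no filter Fcgr2b lost its call for the partner under olaparib (0.05), Fcer1g gained one in the interaction (-0.07) and Spi1 became -0.0014 there. Among the values that some single left-out library turned, all uncalled, the ranges over left-out libraries were -0.0028 to 0.0275 for Fcer1g (olaparib, F133V partner), -0.012 to 0.0257 (partner, DMSO) and -0.0486 to 0.0411 (olaparib, F133V partner) for Irf1, and -0.009 to 0.014 for Stat6 and -0.0021 to 0.0121 for Inppl1 (olaparib, vector partner). The causes of these changes were not tested.

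Same-numbered libraries of different groups correlated at -0.04 to 0.181 (median 0.02) in their deviations from the group means over 5000 genes, with 5 of 18 pairs over 0.1. The 36 pairs with different numbers ran from -0.177 to 0.0714 (median -0.01), and 9 of 12 libraries correlated best with their own number. Some structure shared by number is thus possible. The main fit left the numbers out, and a replicate block was run as an alternative. The replicate block changed the genes called from 7646 to 7679, 5015 to 5093, 4057 to 4135, 8207 to 8226 and 7037 to 7097 and changed no call of the 5 genes. DESeq2 called 6584, 3928, 3055, 7183 and 5940. The receptor ratio per length was lower with principal transcript lengths (3.17 against 4.19 with the vector partner in DMSO). Depth limits Fcgr4 and Fcgr1 the most, the latter at 502 counts in its lowest library and the former at 512.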

Other observations

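Of 13 genes listed as other Fc receptors, which include Fc receptor-like genes and the lectin gene Lgals3, 5 passed the filter on low counts. The shares of all tested genes called in each comparison, given above, are the background for the counts that follow. With the F133V partner in DMSO 1 was higher and 2 were lower (median log2 -0.08), under olaparib the partner gave 0 higher and 2 lower (median -0.06; by edgeR at an unadjusted p under 0.05 2 were higher, and DESeq2 called 0), olaparib gave 1 higher and 2 lower with the vector partner (median 0.05) and 2 higher and 2 lower with the F133V partner (median 0.01). Fcgrt, the neonatal receptor that recycles IgG inside cells, was the 1 that was higher with the F133V partner in DMSO, at 6.0 ± 0.329 against 4.76 ± 0.362 CPM (0.33 ± 0.10, adjusted p = 0.0027, edgeR, n = 3 per group), and olaparib lowered it with the vector (-0.35 ± 0.11) and with the F133V partner (-0.44 ± 0.10), the same directions as Fcgr1. The call with the vector partner was lost without replicate 2 of that partner in DMSO (-0.29, adjusted p = 0.075), and the partner difference under olaparib was not called (0.25 ± 0.11, adjusted p = 0.067). Lgals3, a secreted lectin that can bind IgE and its receptor, was at 2583 ± 26.5 CPM with the vector and 1940 ± 32.1 with the F133V partner in DMSO (-0.41 ± 0.01).

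Of 13 tested macrophage markers 4 were higher and 8 lower with the F133V partner in DMSO (median -0.14), and 5 higher and 7 lower with olaparib opposite F133V cells (median -0.05). All tested genes gave 25.5% higher and 28.1% lower, and 28.5% and 29%. Under olaparib the F133V partner went with 3 higher and 9 lower (median -0.12), and olaparib with the vector partner with 4 higher and 7 lower (median -0.05). A single gene of the 14 cancer cell markers was tested, Fn1, higher with the F133V partner under olaparib (0.46) and with olaparib opposite F133V cells (0.48). Of 16 markers of other leukocytes 2 were tested, and edgeR and DESeq2 called 0 in every comparison; at an unadjusted p under 0.05 edgeR gave 1 lower with the F133V partner in DMSO.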
